A study of Mus musculus with 18 samples.

Results

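The genes described are 36 aminoacyl-tRNA synthetase genes chosen by symbol, 20 of cytosolic enzymes and 16 of mitochondrial ones, whose symbols end in 2, among the 20207 genes listed for each sample. All 36 were listed in all 18 samples, and all 36 were among the 12731 genes tested, which had at least 1 read in each of the 18 samples. Poly(A) RNA of NIH3T3 cells, a mouse embryonic fibroblast line, was sequenced. The cells of every group carried a stably introduced cDNA for DD-GFP, a destabilizing domain of FKBP fused to superfolder GFP, had been sorted for high GFP and were kept with the ligand Shield-1, which holds the domain folded. The 6 groups of 3 samples were unstressed control cells, cells under heat stress (HS) for 45 or 135 min, and cells under tunicamycin (Tun) for 45, 135 or 405 min. Tunicamycin blocks N-linked glycosylation and so causes unfolded protein to build up in the endoplasmic reticulum. HS and Tun served in the study as references for the heat shock response and for the unfolded protein response of the secretory pathway, and the comparisons below ask which synthetase mRNAs changed under each. All groups came from 1 engineered line, no source states that the replicates were separate cultures, and p-values measure only the spread between these samples.

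Aminoacyl-tRNA synthetases join each amino acid to its tRNA and so supply both the cytosolic and the mitochondrial ribosomes. Most amino acids have one nuclear gene for a cytosolic enzyme and another for a mitochondrial enzyme, while Gars and Kars each encode both forms, and Eprs encodes a single cytosolic protein for glutamate and proline. Several cytosolic enzymes sit in the multisynthetase complex with the scaffold proteins Aimp1, Aimp2 and Eef1e1. When unfolded protein builds up in the endoplasmic reticulum, the kinase Eif2ak3 (PERK) phosphorylates eIF2α, translation of most mRNAs falls and that of the transcription factor Atf4 rises. Atf4 is known to bind C/EBP-ATF response elements at genes of amino acid metabolism, several cytosolic synthetases among them.

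The promoter stretches that hold the core of that element are shown because some of their owners rose at 405 min of Tun. These were Aars, Gars, Tars and Yars, while Iars, another owner, was not called. The motif searched was TGATGNAA on both strands, in windows of 300 bases from 250 before to 50 after each start site (RefSeq, GRCm38.p6, a different build from that of the expression files). A window was found for 27 of the 36 genes, and none was found for Cars, Hars, Lars, Nars, Rars, Vars, Wars, Hars2 or Pars2. The motif was in the windows of 5 of 13 cytosolic genes and of 0 of 14 mitochondrial genes, against 3.97% of all 32851 windows. Up to 60 bases on each side of the motif are printed 5′ to 3′ on the strand of the gene, with the motif in capitals, and nothing is shown past the start site beyond the motif.
Aars, chr8:111033670-111033797, plus strand: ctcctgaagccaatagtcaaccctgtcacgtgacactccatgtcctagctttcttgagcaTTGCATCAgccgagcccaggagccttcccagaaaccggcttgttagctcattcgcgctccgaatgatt
Aars, chr8:111033791-111033858, plus strand: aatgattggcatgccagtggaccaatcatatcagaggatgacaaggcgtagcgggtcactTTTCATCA
Gars, chr6:55037911-55038000, plus strand: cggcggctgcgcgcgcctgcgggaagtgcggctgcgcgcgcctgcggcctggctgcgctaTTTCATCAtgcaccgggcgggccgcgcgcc
Iars, chr13:49682077-49682144, plus strand: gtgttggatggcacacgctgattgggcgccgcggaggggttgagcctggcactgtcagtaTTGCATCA
Tars, chr15:11399659-11399733, minus strand: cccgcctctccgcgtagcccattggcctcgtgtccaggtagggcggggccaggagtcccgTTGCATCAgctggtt
Yars, chr4:129189846-129189913, plus strand: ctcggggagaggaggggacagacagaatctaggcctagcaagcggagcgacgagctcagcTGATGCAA
The motif runs on the strand of the gene in Yars and on the opposite strand in the other windows, where the capitals are its reverse complement. Aars held the motif at 2 positions, and the second Aars copy and the copies in Iars and Yars lay just after the start site. A match describes these letters only and shows no binding.

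Between 33415592 and 66478268 estimated reads were assigned to genes per sample, so that 3 reads, the limit that a count of 0 allows for counting error only, were worth 0.0451 to 0.0898 CPM (reads scaled to library size). All 8 fibroblast markers looked up were expressed, with summed levels of 4324 to 12048 RPKM (reads per kilobase of transcript, scaled to the size of the library), while all 4 epithelial and all 4 endothelial markers and 3 of 4 leukocyte markers stayed under 1 RPKM in every sample. Cd68, the other leukocyte marker, reached 7.61 RPKM. The libraries differed in how well they held AT-rich transcripts: the tenth of genes lowest in GC, relative to the tenth highest and to the control mean, stood at 0.316-fold and 0.263-fold in HS 45 min replicates 1 and 2, at 0.244-fold in HS 135 min replicate 2 and at 0.415-fold in Tun 135 min replicate 1. In the other 14 libraries it stood between 0.57-fold and 1.24-fold, with control replicate 1 at 0.63-fold.

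The tilt was visible in the synthetases themselves. The median over the 8 members lowest in transcript GC (Dars, Rars2, Nars2, Farsb, Rars, Yars2, Wars2 and Eprs, 41.95% to 46.93%) was 39.3%, 20.5%, 28.3% and 44.6% of the control mean in the 4 libraries named. Over the 8 members highest in GC (Cars2, Aars, Fars2, Ears2, Vars2, Aars2, Sars2 and Vars, 55.96% to 60.87%) it was 124%, 137%, 119.7% and 129.8% there. Rars, the arginyl enzyme, had 34.9, 77.0 and 77.1 RPKM in control, 7.97, 8.99 and 54.1 RPKM at HS 45 min, 59.3, 9.73 and 33.5 RPKM at HS 135 min, and 12.03, 47.5 and 51.6 RPKM at Tun 135 min. Within each of these stress groups the lowest Rars values were in the libraries just named. A fit with a per-library GC correction is given below where it changed a call.

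**Figure D1:**
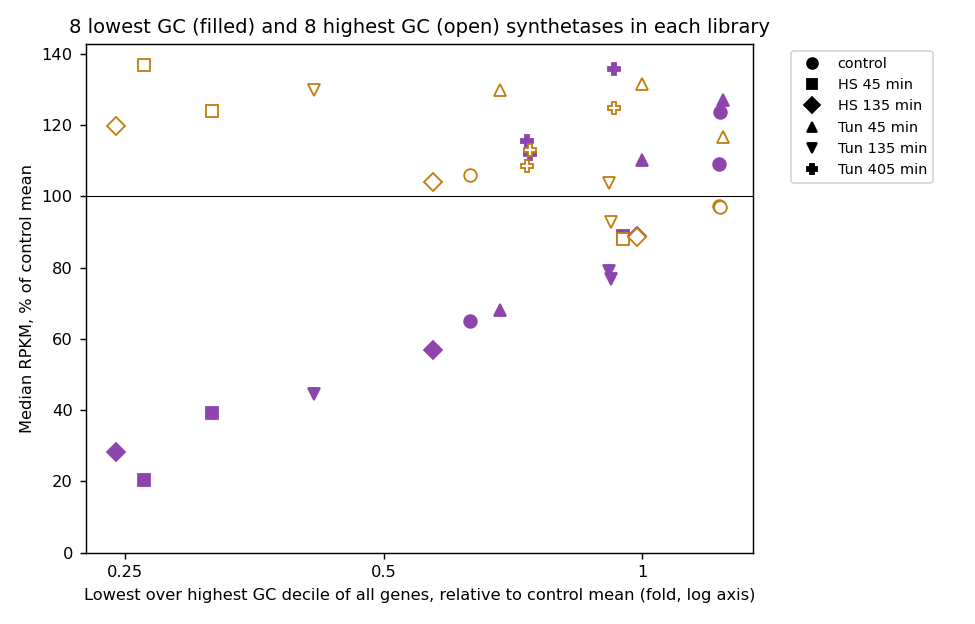
Each library is drawn once with filled symbols (8 synthetases lowest in transcript GC) and once with open symbols (8 highest), with their median RPKM in percent of the control mean on the y axis and the library's low-GC to high-GC fold over all genes, on a log scale, on the x axis. The filled symbols of the libraries below 0.5-fold lie between 20.5% and 44.6%, and their open symbols lie between 119.7% and 137%.

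In unstressed cells the cytosolic enzymes were expressed at far higher levels per length than the mitochondrial ones. The group means ran from 22.2 RPKM for Farsb to 185 RPKM for Sars, the seryl enzyme, with a median of 56.5 RPKM over the 20 cytosolic genes. The mitochondrial genes ran from 1.05 RPKM for Nars2 to 23.0 RPKM for Iars2, with a median of 6.15 RPKM over 16. Iars2 stood above Farsb by its mean and overlapped it, and every other cytosolic gene stood above every mitochondrial one. In this order Sars was separate from its neighbour Gars (185 ± 12.5 and 145 ± 38.3 RPKM, SD, n = 3), as were Vars from Nars, Farsb from Cars2, Fars2 from Wars2, and Hars2 from Nars2, while the other neighbours overlapped. For the 13 amino acids with a gene of the same name in both sets, the cytosolic mean was 1.91 times (Iars over Iars2) to 97.6 times (Nars over Nars2) the mitochondrial one.

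At 405 min of Tun, 16 of the 36 synthetases had higher mRNA levels than control and 3 had lower levels. Of the 20 cytosolic genes 9 rose (Wars, Nars, Sars, Tars, Yars, Gars, Farsa, Cars and Aars) and 1 fell (Mars), and 10 passed in neither direction. Of the 16 mitochondrial genes 7 rose (Tars2, Nars2, Ears2, Sars2, Rars2, Fars2 and Wars2), 2 fell (Lars2 and Iars2) and 7 passed in neither direction. A call is an adjusted p under 0.05 in edgeR's quasi-likelihood test over all 12731 genes, of which 23.3% were called higher and 23.5% lower in this comparison. The median log2 fold change was 0.35 over the cytosolic and 0.16 over the mitochondrial genes, against −0.01 over all genes tested. All the comparisons with control below use the same 3 control samples.

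Wars, which charges tryptophan tRNA, changed most. It had 40.3, 45.8 and 45.7 RPKM in control and 217, 178.5 and 189 RPKM at Tun 405 min, with no other group above 56.7 RPKM. All 3 samples at 405 min lay far above the other 15. The log2 fold change of estimated counts was 2.24 (SE 0.121, adjusted p = 1.35e-05). Nars, the asparaginyl enzyme, went from 79.3, 113 and 115 RPKM to 254.5, 233 and 227 RPKM, a log2 fold change of 1.31 (SE 0.15, adjusted p = 0.000317). Sars went from 173.5, 184 and 198 RPKM to 432, 418 and 414.5 RPKM, a log2 fold change of 1.275 (SE 0.118, adjusted p = 0.000119), and was the most abundant member in both groups. In Nars and Sars, as in Wars, the groups did not overlap.

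A second tier of cytosolic genes rose less. Tars, the threonyl enzyme, had 51.5, 88.0 and 89.1 RPKM in control and 155, 137 and 125 RPKM at 405 min (log2 fold change 0.96, SE 0.194, adjusted p = 0.00454). Yars, the tyrosyl enzyme, had 74.4, 83.5 and 86.5 RPKM and 153, 147 and 146 RPKM (0.96, SE 0.113, adjusted p = 0.000375). Gars, the glycyl enzyme, had 101, 164 and 170.5 RPKM and 268, 232 and 235 RPKM (0.85, SE 0.183, adjusted p = 0.00611). The groups were separate for each, with control replicate 1 the lowest control sample for all 3 genes. Tars, Yars, Gars and Aars are the members that rose and held the motif printed above, and Iars held it without a call. Sars and Farsa rose and had no motif in their windows, as did the mitochondrial members that rose, and no window was found for Wars, Nars and Cars, which rose too.

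Farsa and Farsb encode the catalytic and the other subunit of the cytosolic phenylalanyl enzyme. Farsa went from 27.3, 39.5 and 41.2 RPKM to 52.8, 55.1 and 50.7 RPKM (log2 fold change 0.65, SE 0.151, adjusted p = 0.00844). Farsb, an AT-rich transcript, had 13.3, 25.0 and 28.2 RPKM and 29.5, 20.6 and 20.1 RPKM (0.17, SE 0.25, adjusted p = 0.596), so its groups overlapped. Cars, the cysteinyl enzyme, had a log2 fold change of 0.45 (SE 0.115, adjusted p = 0.0129), from 43.3 ± 4.29 to 55.6 ± 4.92 RPKM (SD, n = 3). Aars, the alanyl enzyme, had 0.38 (SE 0.131, adjusted p = 0.0433), from 121.5, 144.5 and 143 RPKM to 190.2, 158 and 153 RPKM. The call for Aars was lost when any 1 library other than control replicate 1 was left out, and it held in 4 of 9 alternative fits, not in those with the GC correction or the replicate block.

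Mars, the methionyl enzyme of the complex, was the only cytosolic gene called lower. It had 107, 79.3 and 81.5 RPKM in control and 51.4, 38.0 and 39.2 RPKM at 405 min, with a log2 fold change of −0.98 (SE 0.182, adjusted p = 0.00308). The call held without each of the 6 libraries in turn and under all 9 alternative fits. Its 3′ end meets that of Ddit3 (CHOP), a transcription factor induced downstream of Atf4: on mm9 Mars spans chr10:126733282-126748695 on the minus strand and Ddit3 chr10:126727849-126733344 on the plus strand, with 63 bases in common. Ddit3 had 69.6, 68.9 and 72.8 RPKM in control and 2094, 2632 and 2640.0 RPKM at 405 min. Whether reads were counted by strand is not given in the sources used here, so reads in the shared bases cannot be told apart between the 2 genes.

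The other cytosolic genes of the complex had no call in this fit. Eprs went from 46.2 ± 14.6 to 54.2 ± 6.09 RPKM (SD, n = 3; log2 fold change 0.33, adjusted p = 0.238), Lars from 30.8 ± 7.87 to 35.8 ± 4.86 RPKM (0.31, adjusted p = 0.188), and Rars from 63.0 ± 24.4 to 68.8 ± 14.2 RPKM (0.22, adjusted p = 0.524). Iars had 43.9 ± 1.21 and 45.8 ± 11.9 RPKM (0.14, adjusted p = 0.509), Kars 128 ± 11.6 and 124 ± 5.99 RPKM (0.03, adjusted p = 0.825), and Qars 50.02 ± 1.91 and 41.8 ± 4.75 RPKM (−0.18, adjusted p = 0.268). In RPKM the treated and control samples of Eprs, Lars, Rars, Iars and Kars overlapped, and those of Qars lay below control. Of the 8 genes of the complex none was called higher, and of the other 12 cytosolic genes 9 were, with median log2 fold changes of 0.09 and 0.75. This division was made after the values were seen and its difference was not tested. The median of 0.09 uses the count-based value of Dars, −0.10, which rests on unlike transcript models as described next. With the GC correction Eprs and Lars were called higher, so that 2 of the 8 were, and with control replicate 1 left out 1 of the 8, Dars, was. Limma on RPKM also called 1 of the 8 higher, Dars, and the block with the GC correction 1, Lars.

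Dars, the aspartyl enzyme and the eighth gene of the complex, depended on the unit. Its estimated count gave a log2 fold change of −0.10 (SE 0.383, adjusted p = 0.854). The files of control replicate 1, Tun 45 min replicate 1 and Tun 135 min replicate 3 counted Dars on a longer transcript model, with 3.24 times the reads per unit of RPKM, and the other 15 files on a shorter one. In RPKM, which divides by length, it had 31.1, 39.1 and 37.1 in control and 53.1, 57.8 and 47.1 at Tun 405 min, with no overlap. On the log2(RPKM + 0.1) scale limma gave a log2 fold change of 0.56 (SE 0.135, adjusted p = 0.0127), and Dars was then called higher. Of the other members, Fars2 varied 1.44-fold and Tars2 1.13-fold in reads per unit of RPKM among files, and the rest by no more than 5% from their median.

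The remaining cytosolic genes were Hars and Vars. Hars, the histidyl enzyme, had 42.1 ± 11.1 RPKM in control and 53.4 ± 4.89 RPKM at 405 min (SD, n = 3; log2 fold change 0.44, adjusted p = 0.0828), and all 3 treated samples lay above control. Vars, the valyl enzyme, had 128 ± 21.1 and 125 ± 5.81 RPKM (0.05, adjusted p = 0.81), with overlapping groups. Hars was called higher with the replicate number as a block.

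Among the mitochondrial enzymes, Tars2 and Nars2 had the highest log2 fold changes. Tars2 had 8.53, 10.2 and 10.4 RPKM in control and 19.0, 17.7 and 17.6 RPKM at 405 min, a log2 fold change of 1.1 (SE 0.123, adjusted p = 0.000288). All 3 files at 405 min and that of control replicate 3 counted Tars2 on a longer transcript model, and limma on RPKM gave 0.89 for Tars2 and 0.90 for Nars2. Nars2, the member of lowest level in control, had 0.690, 1.13 and 1.33 RPKM and 2.24, 1.84 and 1.86 RPKM (1.01, SE 0.218, adjusted p = 0.00611). Ears2, the mitochondrial glutamyl enzyme, had 2.93, 3.21 and 3.52 RPKM and 5.85, 5.86 and 5.75 RPKM (0.95, SE 0.133, adjusted p = 0.000841). In each case every treated sample stood above every control sample. Sars2 had 9.10, 9.74 and 8.96 RPKM and 13.4, 16.4 and 16.3 RPKM (0.82, SE 0.145, adjusted p = 0.00241). Levels of the mitochondrial genes stayed far below those of the cytosolic ones also at 405 min, with medians of 6.10 and 62.2 RPKM.

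The 3 other mitochondrial rises were smaller. Fars2, the phenylalanyl enzyme, went from 5.72 ± 0.0659 to 7.71 ± 0.481 RPKM (SD, n = 3; log2 fold change 0.52, adjusted p = 0.00989). Rars2 went from 4.04 ± 1.22 to 5.76 ± 0.789 RPKM (0.61, adjusted p = 0.0455) and Wars2 from 4.16 ± 0.0824 to 5.15 ± 0.454 RPKM (0.39, adjusted p = 0.0294). Both of these calls were fragile: leaving out 1 library kept the call of Rars2 in 2 of 6 cases and that of Wars2 in 1 of 6. Both are among the 8 members lowest in GC. Both kept the call with the GC correction and lost it with the replicate block, in a fit of all 6 groups and in limma on RPKM.

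Lars2, the mitochondrial leucyl enzyme, and Iars2, the isoleucyl enzyme, fell. Lars2 had 5.39, 7.75 and 6.56 RPKM in control and 3.46, 2.87 and 3.11 RPKM at 405 min, a log2 fold change of −0.97 (SE 0.149, adjusted p = 0.00125) that was called without each of the 6 libraries. Iars2, the mitochondrial member of highest level in control, had 18.6, 24.1 and 26.1 RPKM and 17.6, 14.8 and 15.2 RPKM (−0.44, SE 0.134, adjusted p = 0.0258), and its call was kept in 2 of 6 cases. The number of mitochondrial genes called lower was 4 without control replicate 1, 2 without Tun 405 min replicate 1, and 1 without any other of the 6 libraries.

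The mitochondrial genes that passed in neither direction held a spread of small changes. Aars2 went from 8.99 ± 1.47 to 6.37 ± 0.0674 RPKM (SD, n = 3; log2 fold change −0.41, adjusted p = 0.0663), with all treated samples below control. It was called lower with the GC correction, with the block and GC correction together, and in limma on RPKM (−0.48, adjusted p = 0.0311). Yars2 had 8.29 ± 2.79 and 7.003 ± 0.320 RPKM (−0.14), Hars2 3.05 ± 0.729 and 2.53 ± 0.252 RPKM (−0.17), and Pars2, the prolyl enzyme, 3.93 ± 0.408 and 3.29 ± 0.412 RPKM (−0.17). Vars2 had 9.28 ± 0.8997 and 10.1 ± 0.293 RPKM (0.20), Mars2 3.39 ± 0.601 and 3.44 ± 0.306 RPKM (0.12), and Cars2 10.6 ± 1.36 and 10.4 ± 0.837 RPKM (0.06). For these 6 genes the groups overlapped, with adjusted p between 0.254 and 0.763. Hars2 and the cytosolic Hars lie head to head on mm9 chromosome 18, with 74 bases between them.

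**Figure D2:**
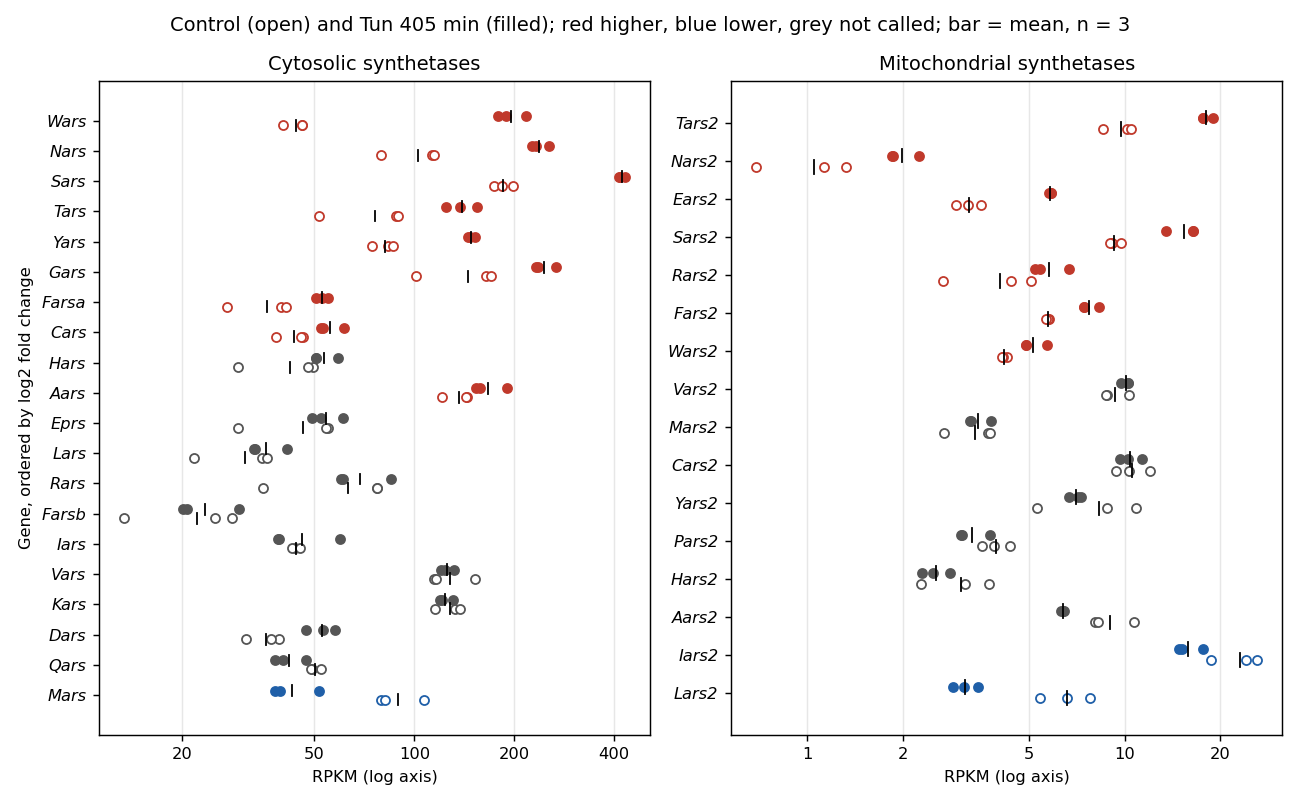
RPKM on a log axis of the 20 cytosolic and 16 mitochondrial synthetases in the 3 control samples (open) and the 3 samples at 405 min of Tun (filled), ordered by log2 fold change of counts, with bars at the means and colours for calls in edgeR. Wars lies at 40.3 to 45.8 RPKM in control and 178.5 to 217 RPKM at 405 min, and Mars and Lars2 are the members whose levels fell furthest.

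Cytosolic and mitochondrial enzymes for the same amino acid did not always change together. Among the 13 such pairs both genes rose in 4 (Nars, Sars, Tars and Wars with their partners), and only the cytosolic one was called, higher, in 3 (Aars, Cars and Yars). In 1 pair only the cytosolic gene was called lower (Mars), in 2 only the mitochondrial one was called lower (Iars2 and Lars2), and in 1 only the mitochondrial one was called higher (Rars2). Neither gene was called in the remaining 2 pairs (Hars and Vars with Hars2 and Vars2). The ratio of Wars to Wars2 RPKM went from 10.6 to 37.8, that of Lars to Lars2 from 4.69 to 11.4, and that of Mars to Mars2 from 26.4 to 12.5, as ratios of group means. The difference in change within a pair was not tested. Since these are bulk samples, less RNA per cell and fewer cells holding an mRNA cannot be told apart.

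At the earlier Tun times no synthetase passed the test. At 45 min edgeR called 0 of 36, against 4.01% of all genes higher and 2.17% lower. At an unadjusted p under 0.05, 7 members were higher and 3 lower, as were 1791 and 1469 of all 12731 genes. The medians were 0.04 over the cytosolic and 0.03 over the mitochondrial genes, against 0.00 over all. Some members stood apart from control in every sample, in both directions. In CPM, Aars, Cars, Nars, Sars, Tars, Wars, Ears2, Sars2 and Tars2 lay above all control samples. Kars, Mars, Qars, Cars2 and Yars2 lay below them. The share of all genes that did so was not worked out, so these lists cannot be read as particular to the synthetases. Aars had 192, 206 and 205 RPKM against 121.5, 144.5 and 143 RPKM (log2 fold change 0.48, SE 0.127, adjusted p = 0.065), and Sars had 248, 272.5 and 307 RPKM against 173.5, 184 and 198 RPKM (0.50, SE 0.139, adjusted p = 0.0748). Without control replicate 1 the count was 5 (Aars, Sars and Tars higher, Kars and Yars2 lower). That run called 1391 of all 12731 genes higher and 1108 lower. Other tools called 4 (DESeq2), 3 (edgeR's exact test) and 2 (limma on RPKM), with Aars and Sars higher in each, and the GC correction called 3, with Sars higher and Cars2 and Yars2 lower. Of all genes DESeq2 called 972 higher and 871 lower, the exact test 897 and 607, limma 793 and 211, and the GC correction 1049 and 914.

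At 135 min of Tun edgeR again called 0 of 36, against 0.126% of all genes higher and 0.00785% lower. At an unadjusted p under 0.05, 0 members were higher and 4 lower, against 1288 and 1081 of all 12731 genes. Wars was then at 32.5, 35.3 and 30.9 RPKM, below all 3 control samples (log2 fold change −0.35, SE 0.156, adjusted p = 0.272). The medians were −0.18 over the cytosolic and −0.21 over the mitochondrial genes, against 0.00 over all. Yars2, the mitochondrial tyrosyl enzyme, had 3.72, 3.82 and 3.35 RPKM against 5.30, 8.76 and 10.8 RPKM (−1.12, SE 0.271, adjusted p = 0.123). DESeq2, the exact test and a fit of all 6 groups each called 1 member, Yars2, lower. They called 318, 305 and 233 of all genes higher and 321, 242 and 178 lower. Tun 135 min replicate 1 is one of the libraries poor in AT-rich transcripts, and with the GC correction 1 member was called, Cars2, lower. That correction called 168 of all genes higher and 117 lower.

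The changes at 405 min were therefore compared directly with the earlier times. Against Tun 45 min, 14 members were higher and 3 lower at 405 min, with 24.4% of all genes called higher and 28.1% lower. The cytosolic genes called were Farsa, Gars, Hars, Kars, Nars, Sars, Tars, Wars and Yars higher and Mars lower. The mitochondrial ones were Cars2, Ears2, Nars2, Tars2 and Yars2 higher and Lars2 and Pars2 lower. Of these members, Kars, Cars2 and Yars2 had lain below all control samples in CPM at 45 min and were not called against control at 405 min. Wars rose from 56.7, 54.3 and 51.2 RPKM to the levels given above (log2 fold change 1.96, SE 0.0987, adjusted p = 3.79e-06). Tars2, which had 13.2, 13.7 and 14.4 RPKM at 45 min, had a log2 fold change of 0.57 (SE 0.113, adjusted p = 0.00307). The GC correction added Farsb, Lars, Rars2, Sars2 and Wars2 to those higher. It called 3793 of all genes higher and 3613 lower. Dars, with 34.9, 38.9 and 37.5 RPKM at 45 min and 53.1, 57.8 and 47.1 RPKM at 405 min, was not called on counts. It was called higher in limma on RPKM and without Tun 45 min replicate 1, the file with the longer Dars model. Of all genes these runs called 2520 and 3190 higher and 4070 and 3206 lower.

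Against Tun 135 min, 16 members were higher and 2 lower at 405 min, with 21.4% of all genes called higher and 22.4% lower. The cytosolic genes were Farsa, Gars, Hars, Lars, Nars, Sars, Tars, Wars and Yars higher and Mars lower, and the mitochondrial ones Cars2, Ears2, Fars2, Nars2, Rars2, Tars2 and Yars2 higher and Lars2 lower. Nars2 had 0.465, 0.678 and 0.593 RPKM at 135 min, so that its log2 fold change was 1.78 (SE 0.181, adjusted p = 0.000316). Yars2 rose between these times (0.95, SE 0.162, adjusted p = 0.00285) to 6.64, 7.10 and 7.26 RPKM, within the range of its control samples. The count was 11 without Tun 405 min replicate 3 and 24 without Tun 135 min replicate 1. Of all 12731 genes the former run called 1692 higher and 1855 lower, and the latter 4094 and 4032. The GC correction added Cars, Eprs, Farsb, Iars and Sars2 to those higher and Pars2 to those lower. It called 3390 of all genes higher and 3344 lower. Dars, with 34.7, 28.4 and 27.2 RPKM at 135 min, was again not called on counts. It was called higher in limma on RPKM and without Tun 135 min replicate 3, the file with the longer Dars model. Of all genes these runs called 2796 and 2186 higher and 2621 and 2396 lower.

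**Figure D3:**
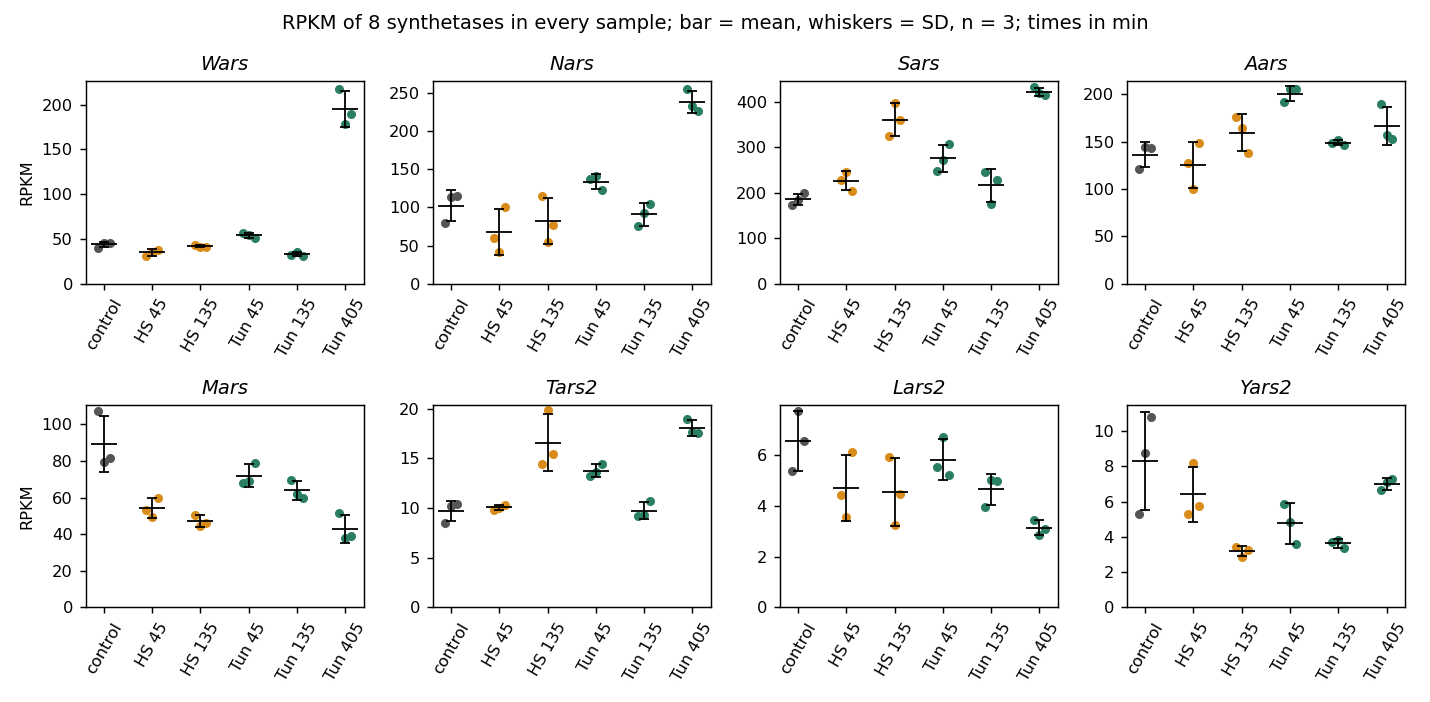
RPKM of 8 synthetases in each of the 18 samples, with means and SDs of the 6 groups of 3 samples, the groups on the x axis and a linear y axis from 0. Wars stands above 56.7 RPKM only at 405 min of Tun, Sars is high at HS 135 min and Tun 405 min, and Yars2 is lowest at HS 135 min, between 2.87 and 3.44 RPKM.

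Under HS edgeR called few synthetases and a small share of all genes. At 135 min edgeR called 1 of 36 higher (Sars) and 1 lower (Yars2), against 4.75% of all genes higher and 2.64% lower. Sars had 324, 396 and 359.9 RPKM against 173.5, 184 and 198 RPKM in control (log2 fold change 1.17, SE 0.227, adjusted p = 0.0273). Yars2 had 3.44, 2.87 and 3.25 RPKM against 5.30, 8.76 and 10.8 RPKM (−1.18, SE 0.291, adjusted p = 0.0497). Neither gene overlapped its control values. With each of the 6 libraries left out in turn, the log2 fold change was 1.04 to 1.31 for Sars and −1.39 to −0.97 for Yars2. Both calls were lost without control replicate 2, control replicate 3 or HS 135 min replicate 3. In those runs 12, 10 and 11 of all genes were called higher and 3, 1 and 0 lower. Without control replicate 1 only Yars2 was called, and without HS 135 min replicate 1 Sars and Tars2 were. Of all genes these runs called 350 and 1535 higher and 192 and 932 lower. The median log2 fold change was −0.12 over the cytosolic and −0.31 over the mitochondrial genes, against −0.02 over all.

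Mars and Tars2 were near the threshold at HS 135 min. Mars had 50.6, 44.4 and 46.4 RPKM, below its 3 control samples (log2 fold change −0.74, SE 0.213, adjusted p = 0.0695), and was called lower by DESeq2, by the exact test, by limma on RPKM, in a fit of all 6 groups and with the GC correction. Tars2 had 14.5, 19.8 and 15.4 RPKM against 8.53, 10.2 and 10.4 RPKM (0.95, SE 0.254, adjusted p = 0.0586), and was called higher in the same fits except limma on RPKM. With the GC correction 5 members were called, Sars and Tars2 higher and Aars2, Mars and Qars lower, and Yars2 was not among them. With the replicate number as a block 0 were. Of all genes the GC correction called 1433 higher and 1180 lower, and the block called 0 in either direction.

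At 45 min of HS edgeR called 0 of 36 synthetases and 0.0% of all genes in either direction (0 of 12731). At an unadjusted p under 0.05, 1 member was higher and 4 were lower, and 1568 genes were higher and 912 lower. The median was −0.29 over the cytosolic and −0.23 over the mitochondrial genes, against −0.03 over all. DESeq2 and the exact test called 0 members as well (386 and 251 of all genes higher, 65 and 39 lower), and a fit of all 6 groups called 2, Mars and Qars, lower. That fit called 925 of all genes higher and 420 lower. Mars had 53.0, 49.4 and 60.1 RPKM, below all control samples, with a log2 fold change of −0.55 (SE 0.218, adjusted p = 0.242). Without HS 45 min replicate 3, the library of that group nearest to the control mean in GC, the count was 17, with 5 higher and 12 lower, and 2737 of all 12731 genes were then called higher and 3049 lower. Farsb, for one, had 1.44, 0.826 and 15.2 RPKM in this group.

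HS and Tun were compared directly at 135 min. No member passed the test (0 of 36 in edgeR, with 4 higher and 1 lower under HS at an unadjusted p under 0.05), against 1.3% of all genes higher and 0.817% lower under HS. At that unadjusted threshold 1302 of all genes were higher and 1241 lower. Sars had 324, 396 and 359.9 RPKM under HS and 246, 176 and 227 RPKM under Tun, without overlap (log2 fold change 0.87, SE 0.247, adjusted p = 0.114). DESeq2 called Sars and Tars2 higher under HS, the exact test called Sars, and the GC correction called Sars and Wars. Of all genes these fits called 715, 560 and 822 higher and 541, 373 and 635 lower.

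**Figure D4:**
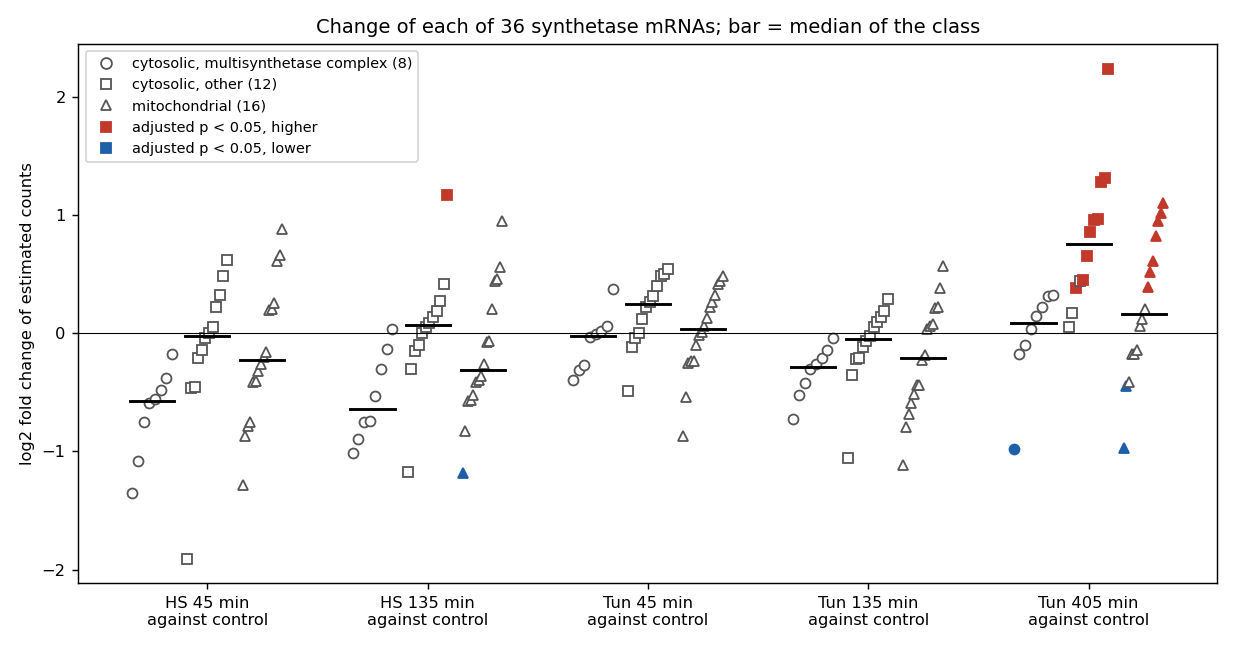
Log2 fold change of estimated counts against control for each of 36 synthetases in the 5 stress groups, split into 8 cytosolic genes of the multisynthetase complex, 12 other cytosolic genes and 16 mitochondrial genes, with filled symbols for calls and bars at class medians. Filled symbols appear at HS 135 min (1 higher, 1 lower) and at Tun 405 min (16 higher, 3 lower), where the medians are 0.09, 0.75 and 0.16.

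Other genes of tRNA charging and its regulation were described by lists. At 405 min of Tun 23.3% of all genes tested were called higher and 23.5% lower, and the lists below are small beside these shares. Of the 3 scaffold genes of the complex, Aimp1 (log2 fold change 0.89, adjusted p = 0.0044) and Eef1e1 (0.78, adjusted p = 0.00866) rose at 405 min of Tun, and Aimp2 (0.07, adjusted p = 0.712) did not pass. Of 4 genes for tRNA export, end repair and proofreading, 2 rose: Dtd1, a D-aminoacyl-tRNA deacylase (1.14, adjusted p = 0.000887), and Xpot, the tRNA exportin (0.89, adjusted p = 0.000908). None of 5 cytosolic elongation factor genes was called (0 of 5 in edgeR). At an unadjusted p under 0.05, 1 of them was lower, as were 3488 of all 12731 genes. Of 10 genes for mitochondrial translation factors and the glutaminyl amidotransferase, 2 rose, Tsfm (1.11, adjusted p = 0.000975) and Gatc (0.94, adjusted p = 0.00045), and 1 fell, Gfm1 (−0.42, adjusted p = 0.029).

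Genes of the integrated stress response were called against control at 4 of the 5 stress times, and at the other, HS 45 min, the fit called no gene at all. At 405 min of Tun 7 of 10 rose and 1 fell, against 23.3% and 23.5% of all genes. The rises were led by Atf3 (log2 fold change 6.52), Ddit3 (5.22) and Chac1 (3.36). Atf4 had 225, 245.5 and 243 RPKM in control and 675, 662 and 712 RPKM (1.61, SE 0.125, adjusted p = 5.58e-05). At Tun 45 min, when 0 synthetases were called, 6 of the 10 were higher, against 4.01% of all genes. Among them were Atf3 (4.85), Ddit3 (2.92) and Chac1 (2.71). At Tun 135 min 1 was higher (Atf3, 2.19, adjusted p = 0.0457), in a fit that called only 16 of all 12731 genes higher and 1 lower. At HS 135 min 6 were higher, led by Atf3 (5.62), Chac1 (3.09) and Ddit3 (2.32), against 4.75% of all genes. At HS 45 min edgeR called 0 of the 10 and 0 of all 12731 genes, so that count says nothing about these genes. At an unadjusted p under 0.05, 5 were higher and 1 lower, against 1568 and 912 of all genes. Asns, asparagine synthetase, and Psat1, a serine synthesis enzyme, were called against control at none of the 5 stress times, with log2 fold changes of 0.44 and −0.30 at 405 min of Tun. Atf4, Asns and Psat1 are named here after their values were seen.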

How the data were processed

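Poly(A) RNA of 18 samples was sequenced in the study. The authors mapped the reads to mm9 and deposited, for each RefSeq gene and sample, an estimated count of reads and an RPKM value made from it. The DNAnexus platform is named, and the aligner, its settings and any use of strand are not given in the sources used here. Other deposited columns were not used, and 0 columns belonged to other samples.

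Estimated counts were rounded and fitted in edgeR 4.0.16 (R 4.3.3) for each comparison on its own 6 samples: genes with at least 1 read in each of the 18 samples (12731 of 20207), TMM scaling, the quasi-likelihood test, and Benjamini-Hochberg adjustment over all genes tested, with a threshold of 0.05. Standard errors were derived from the fold change and F statistic. RPKM served for levels. The script was tested on simulated counts. Alternatives were DESeq2 1.42.0 (its test and its size factors), edgeR's exact test, no filter on low counts, one fit over the 6 groups, a block for replicate number, a loess offset on transcript GC (available for 12403 genes tested, 97.4%), both together, and each sample left out. Added after seeing the data were limma 3.58.1 on log2(RPKM + 0.1), since files differ in the transcript model of 330 of 11781 genes, and HS 45 min without replicates 1 and 2. Replicate pairs differed beyond counting noise (chi-square per degree of freedom of 16.1 to 894). Deviations of same-numbered samples correlated above 0.1 in every pair only for Tun 135 min with control (0.341, 0.319 and 0.287), where 0 members were called with and without the block.

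All 36 members are named at 405 min of Tun, and elsewhere those past the threshold and those near it, the latter chosen after their values were seen. Pathway lists name up to 3 genes. Members, lists and the division by complex were chosen with earlier results of these data known. Gatb (Pet112) is listed as Pet112l and was analysed under that symbol, and Prorsd1, Dtd2 and Ppp1r15a were not analysed here.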

Additional observations from a re-analysis of the deposited data

Results flagged for a closer look

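The synthetases that differed between 2 times of Tun, by a direct edgeR test of the difference, are given here as log2 fold changes. Between 45 and 405 min 17 differed. Cytosolic members higher at 405 min were Wars (1.96), Nars (0.95), Yars (0.78), Sars (0.72), Farsa (0.60), Gars (0.53), Hars (0.42), Tars (0.37) and Kars (0.29), and Mars was lower (−0.64). Mitochondrial members higher were Nars2 (0.97), Yars2 (0.67), Tars2 (0.57), Cars2 (0.55) and Ears2 (0.45), and Lars2 (−0.77) and Pars2 (−0.49) were lower.

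Between 135 and 405 min 18 differed. Cytosolic members higher at 405 min were Wars (2.56), Nars (1.40), Yars (1.14), Gars (1.04), Sars (0.96), Tars (0.84), Lars (0.81), Farsa (0.65) and Hars (0.48), and Mars was lower (−0.59). Mitochondrial members higher were Nars2 (1.78), Rars2 (1.03), Tars2 (0.99), Yars2 (0.95), Cars2 (0.71), Ears2 (0.70) and Fars2 (0.68), and Lars2 was lower (−0.56). Of these members, Hars, Lars, Cars2 and Yars2 were not called against control at 405 min. Both comparisons share the samples at 405 min. Dars, counted on unlike transcript models among the samples of both, is not in these lists and was called higher in limma on RPKM in both.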

How the results depend on the processing

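No member called in edgeR changed direction under any alternative run. Dars, not called on counts at Tun 405 min (−0.10), was called higher in limma on RPKM (0.56). Of the 19 calls at Tun 405 min against control, DESeq2, its size factors, the exact test and no filter kept all 19, the GC correction 18, limma on RPKM 16, the replicate block 15 and the fit of all 6 groups 13, and 94 of 114 calls held with a sample left out. With all 6 groups fitted, 3 mitochondrial members were higher there (7 in the report) and 1 was lower (2 in the report), and with the replicate block 1 was lower. With a sample left out, 1 to 4 were lower. At HS 45 min (0 in the report) the fit of all 6 groups called 2, and 0 to 17 were called with a sample left out. That fit called 925 of all genes higher and 420 lower. The 17 came without HS 45 min replicate 3, a run that called 2737 of all genes higher and 3049 lower. With HS 45 min replicates 1 and 2 left out, the spread came from the control samples alone, 0 of all genes were called, and the 0 members called say nothing further. At HS 135 min (2 in the report) DESeq2 called 4, the exact test 4, the fit of all 6 groups 6, the GC correction 5, the replicate block 0, and 0 to 2 were called with a sample left out. The named fits called, in the same order, 1232, 1164, 1829, 1433 and 0 of all genes higher. They called 927, 821, 1414, 1180 and 0 lower. At Tun 45 min (0 in the report) DESeq2 called 4, the exact test 3, the GC correction 3, limma on RPKM 2, and 0 to 5 were called with a sample left out. In that order, the named fits called 972, 897, 1049 and 793 of all genes higher and 871, 607, 914 and 211 lower. At Tun 135 min (0 in the report) DESeq2, the exact test, the fit of all 6 groups and the GC correction each called 1. Of all genes they called 318, 305, 233 and 168 higher and 321, 242, 178 and 117 lower. Tun 405 against 45 min (17) gave 11 with all 6 groups fitted, and Tun 405 against 135 min (18) gave 11 to 24 with a sample left out. With all 6 groups fitted, 1659 of all genes were higher and 1769 lower at 405 than at 45 min. The counts of all genes in the runs that gave 11 and 24 are stated above. HS against Tun at 135 min (0 in the report) gave 2 in DESeq2, 1 in the exact test, 3 with all 6 groups and 2 with the GC correction. Of all genes these fits called 715, 560, 998 and 822 higher and 541, 373, 773 and 635 lower. The causes were not tested. Apart from Tun 135 min against control, the replicate numbers were not shown to pair samples. In limma on RPKM the median of all genes against control was −0.16 at HS 45 min, −0.18 at HS 135 min, 0.07 at Tun 45 min, −0.06 at Tun 135 min and −0.07 at Tun 405 min. It was −0.13 for Tun 405 against 45 min, 0.01 for Tun 405 against 135 min and −0.14 for HS against Tun at 135 min. Calls in limma were not corrected for these shifts.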
